A study of Mus musculus with 41 samples.

Results

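The 35 genes described here drive or mark the cell division cycle: the G1 cyclins Ccnd1, Ccnd2, Ccnd3, Ccne1 and Ccne2 with the transcription factor gene E2f1, 8 genes of DNA replication, 9 mitotic cyclins and kinases, and 12 genes of the spindle, the kinetochore and the condensed chromosome. They were chosen by gene symbol from a fixed list, each symbol matched 1 row of the deposited mouse expression table, and all 35 of 35 were found among 34591 entries. The table comes from 41 RNA-seq libraries of a mouse model of diffuse midline glioma, a childhood brainstem tumor in which lysine 27 of histone H3.3 is often changed to methionine (K27M). Of these, 20 were K27M brainstem tumors and 9 were WT-Tag brainstem tumors. The 12 others were neurospheres, floating cultures of neural precursor cells, from the hindbrain or the forebrain of e15.5 embryos, at 3 K27M and 3 WT-Tag cultures per region.

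The K27M tumors carried the allele H3f3aLSL-K27M-Tag/+, in which removal of a stop cassette by Cre recombinase switches on the tagged mutant histone, and the WT-Tag tumors carried H3f3aLSL-WT-Tag/+, which switches on a tagged wild-type histone. Both tumor groups also carried Nestin-creERT2, a tamoxifen-inducible Cre under the nestin promoter of neural precursors, together with LSL-PDGFRαV544ins, an activated growth factor receptor, and homozygous floxed Trp53. The oncogenic receptor and the loss of the p53 gene were thus shared by the K27M and WT-Tag tumors. The neurospheres carried Nestin-cre with 1 of the same 2 histone alleles, and neither the receptor nor the floxed Trp53. A snap-frozen tumor piece holds every cell type of the tissue, so fewer dividing cells and less of a transcript per dividing cell cannot be told apart in any value below.

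In G1, D-type cyclins with CDK4 or CDK6 begin to inactivate the retinoblastoma protein, which releases E2F factors. E2F factors then raise cyclin E and the replication genes, among them the MCM helicase subunits, Pcna, the sliding clamp of DNA polymerases, and Rrm2, a subunit of the enzyme that makes deoxynucleotides. Later, in G2 and mitosis, cyclin A2, the B-type cyclins and Cdk1 act with the Polo and Aurora kinases, kinesins and checkpoint proteins to build the spindle and part the chromosomes. Transcripts of this late group peak in G2 and mitosis and are low in resting cells, whereas D-type cyclins respond to growth factors and are not tied to that phase.

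Values are FPKM as deposited, that is, fragment numbers scaled by transcript length and by the library's mapped fragments, and changes are differences of log2(FPKM + 1) from limma, with p-values adjusted over all genes tested and a threshold of 0.05. All 35 members passed the filter on low values in each comparison. The depth of a library is not stated. Relative depths, read from the steps between low FPKM values, were 0.431 to 1.79 across K27M tumors and 0.838 to 1.75 across WT-Tag tumors, and they were lowest in the K27M and WT-Tag forebrain cultures of experiment 1, at 0.269 and 0.413. In 2 libraries, WT-Tag tumors 8 and 9, sex-linked transcripts went against the labelled sex, so the tumor comparison, the spread over tumors and the relations to Mki67 over all tumors are also given without them. Summed neural stem markers were 2129 to 2583 FPKM in the neurospheres and 154.8 to 1270 FPKM in tumors, which also held neuron, oligodendrocyte and microglia markers. Nothing in the labels says whether tumors shared a litter or cultures an embryo, so p-values measure the spread between these samples.

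Neurospheres held the higher levels. For 34 of the 35 members all 4 neurosphere group means lay above both tumor group means, and the highest mean was in K27M forebrain cultures for 20 members, in K27M hindbrain cultures for 14 and in a tumor group for 1, the D-type cyclin gene Ccnd3. The share of all genes with this order was not computed. Of all genes tested, 26.5% passed the threshold as lower in K27M tumors than in K27M hindbrain cultures. Between WT-Tag tumors and WT-Tag hindbrain cultures 17.4% did.

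In hindbrain cultures all 35 members had a positive log2 change in K27M against WT-Tag, with a median of 0.53 and a range of 0.02 to 0.82, beside a median of 0.09 over all genes tested. Of all genes tested, 62.3% were positive. No member passed the threshold. Over all 13190 genes tested, 13.5% passed in this comparison. The smallest adjusted p of a member was 0.0628, for the mitotic kinesin gene Kif11. An unadjusted p under 0.05 was found for 18 of the 35 members and for 4068 of the 13190 genes tested. With median-ratio scaling or quantile normalization 32 members, not 35, were positive.

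By role, the mitotic cyclins and kinases had the largest median in this comparison, 0.60, against 0.54 for spindle and chromosome genes, 0.49 for replication and 0.35 for the G1 genes. Aurka, the kinase of centrosomes and spindle poles, had 35.3, 35.7 and 29.5 FPKM in K27M hindbrain cultures of experiments 1, 2 and 3, against 33.5, 12.7 and 14.8 FPKM in WT-Tag cultures. For Ccnb1, the cyclin that activates Cdk1 at the entry into mitosis, the values were 58.9, 63.8 and 52.0 FPKM in K27M cultures, against 64.2, 30.8 and 27.96 FPKM in WT-Tag cultures. Cdk1 itself had 54.7, 60.6 and 46.7 FPKM in K27M cultures and 58.1, 30.2 and 24.7 FPKM in WT-Tag cultures. In each of these genes the WT-Tag library of experiment 1 lay within or above the K27M range, whereas the WT-Tag libraries of experiments 2 and 3 were below all 3 K27M libraries. The log2 changes were 0.81 ± 0.32 (SE) for Aurka, 0.59 ± 0.27 for Ccnb1 and 0.60 ± 0.26 for Cdk1, with adjusted p-values of 0.117, 0.161 and 0.149. Ccnb2, a second B-type cyclin, was the only member whose K27M and WT-Tag hindbrain libraries did not overlap, with 56.2, 57.5 and 55.0 FPKM in K27M cultures and 54.0, 25.9 and 23.3 FPKM in WT-Tag cultures (log2 change 0.79 ± 0.28, adjusted p = 0.0832). Over all genes tested, 28% did not overlap in this comparison.

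The remaining mitotic kinases and cyclins behaved alike. Plk1, the Polo kinase of mitotic entry, had a log2 change of 0.76 in hindbrain cultures, and Aurkb, the kinase of the chromosomal passenger complex, had 0.77. The checkpoint kinase genes Bub1 and Bub1b, which watch over the attachment of kinetochores, had 0.57 and 0.52, and Ccna2, the cyclin of S phase and G2, had 0.53. Adjusted p-values of these 5 genes were between 0.106 and 0.182.

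The labels give cultures of the same number a shared experiment id, and with it as a replicate block 3 members were higher in K27M hindbrain cultures, namely Aurka, Aurkb and Ccnb2, with adjusted p-values of 0.0400, 0.0484 and 0.0489, where 11.2% of all genes were called higher. Over the alternatives run, the adjusted p of Aurka ranged from 0.00399 to 0.406. Left out alone, the WT-Tag hindbrain library of experiment 1 took the count of members called higher to 27 of 35, with a median of 0.84, where 23.4% of all genes were called higher. Without all 4 libraries of experiment 1, an alternative chosen after seeing the data, it was 26 of 35, with a median log2 change of 0.81 beside 0.14 over all genes, and 14.5% of all genes were called higher. The 8 members not called without that 1 library were Ccnd2, Ccnd3, Ccne1, Ccne2, Mcm4, Mki67, Cenpe and Cenpf. Experiment 3 set female K27M cultures against male WT-Tag ones, and without it the median was 0.46 and no member was called.

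**Figure D1:**
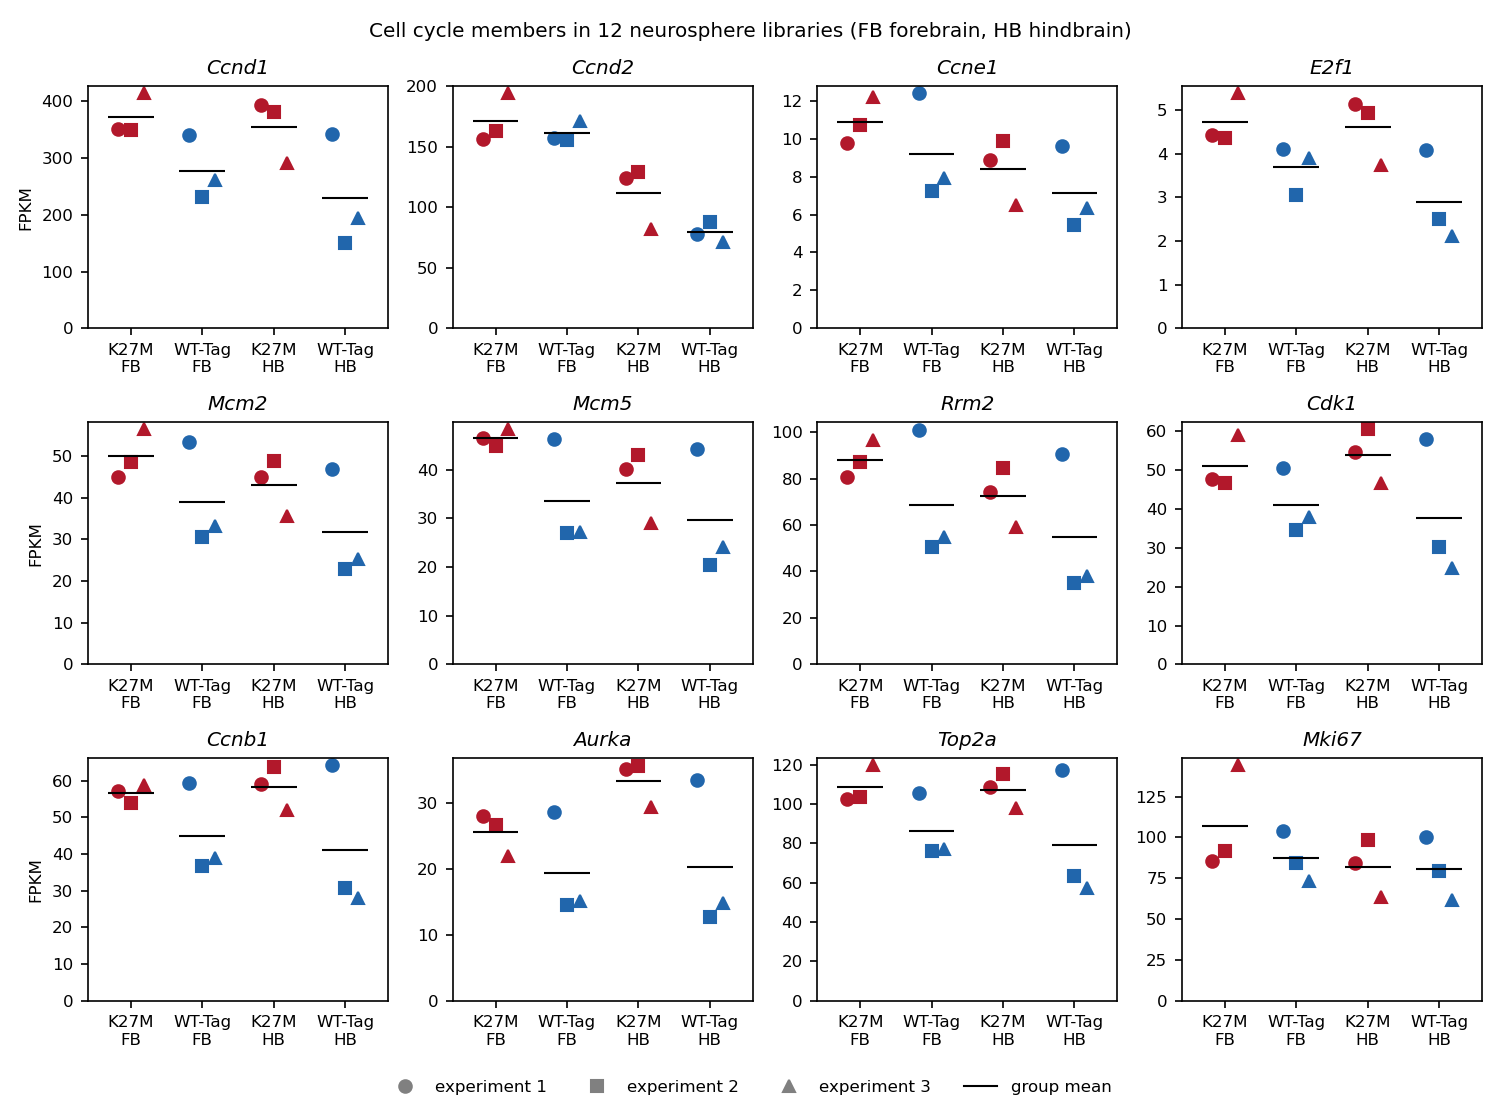
FPKM of 12 members in every neurosphere library (vertical axis, linear from 0) by group (horizontal axis, K27M red and WT-Tag blue, FB forebrain and HB hindbrain). Symbols give the experiment and lines the group mean; the WT-Tag libraries of experiment 1 (circles) lie at the level of the K27M libraries for most members shown.

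The experiments differed in what they showed. In the hindbrain cultures of experiment 1, 11 of 35 members were higher in K27M than in WT-Tag and the median log2 difference was -0.07, beside 45.7% of all genes tested and a median of -0.02. In experiment 2 all 35 were higher, with a median of 0.96, beside 68.1% of all genes and a median of 0.20. In experiment 3, 32 were higher, with a median of 0.62, beside 58.9% and 0.08. Forebrain cultures showed 8 of 35 in experiment 1 (median -0.05), 35 of 35 in experiment 2 (0.54) and 35 of 35 in experiment 3 (0.62), beside 49.6%, 65.6% and 55.4% of all genes. The WT-Tag library of experiment 1 lay above both other WT-Tag libraries for 33 members in the hindbrain and for 34 in the forebrain.

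Replication genes had smaller hindbrain changes, with a median of 0.49 over 8 genes and adjusted p-values of 0.119 to 0.366. Mcm2, a helicase subunit, had 45.0, 48.8 and 35.6 FPKM in K27M hindbrain cultures of experiments 1, 2 and 3, against 46.9, 22.8 and 25.3 FPKM in WT-Tag cultures (log2 change 0.50 ± 0.27). For Mcm5, another subunit of that helicase, the values were 40.1, 42.9 and 28.97 FPKM in K27M cultures and 44.3, 20.4 and 24.03 FPKM in WT-Tag cultures (0.39 ± 0.28). Rrm2 had 74.3, 84.7 and 59.1 FPKM in K27M cultures and 90.5, 35.2 and 38.2 FPKM in WT-Tag cultures (0.53 ± 0.34). As in the mitotic genes, the highest WT-Tag library was that of experiment 1, and here it exceeded at least 1 K27M library in each gene. Among the other subunits Mcm3, Mcm4, Mcm6 and Mcm7 had log2 changes of 0.52, 0.31, 0.57 and 0.49, and Pcna had 0.34.

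G1 cyclins were less uniform. Ccnd1, the main target of growth factor signals among them, had 393.9, 382.1 and 290.7 FPKM in K27M hindbrain cultures, against 342.1, 150.9 and 194.1 FPKM in WT-Tag cultures (log2 change 0.71 ± 0.26, adjusted p = 0.0966). Ccnd2, the D-type cyclin of neural precursors, had 124.0, 129.1 and 82.3 FPKM in K27M cultures and 78.1, 87.9 and 71.2 FPKM in WT-Tag cultures (0.47 ± 0.16, adjusted p = 0.0801). Ccnd3 had 15.96, 14.1 and 13.2 FPKM in K27M cultures and 13.3, 10.8 and 13.6 FPKM in WT-Tag cultures (0.19 ± 0.12). Ccnd2 and Ccnd3 were the 2 members whose WT-Tag library of experiment 1 was not the highest of the WT-Tag libraries. Without the K27M hindbrain library of experiment 3 Ccnd2 was the 1 member called higher (0.68, adjusted p = 0.0150, with a range of 0.0150 to 0.263 over the alternatives). In that setting 4.46% of all genes were called higher.

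Ccne1 had 8.90, 9.89 and 6.49 FPKM in K27M hindbrain cultures, against 9.63, 5.46 and 6.34 FPKM in WT-Tag cultures, a log2 change of 0.23 ± 0.22. Ccne2, the second E-type cyclin, had 0.02 ± 0.29, with a 95% interval of -0.61 to 0.65. E2f1 was low throughout, with 5.14, 4.93 and 3.73 FPKM in K27M cultures and 4.09, 2.50 and 2.12 FPKM in WT-Tag cultures (0.54 ± 0.18, adjusted p = 0.0679). For both E-type cyclins the WT-Tag library of experiment 1 lay above at least 2 of the K27M libraries, and for E2f1 the WT-Tag library of experiment 1 lay between the K27M libraries.

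Spindle and chromosome genes spanned nearly the whole range of the hindbrain comparison. Cdc20, the activator of the ligase that starts anaphase, had the largest log2 change of the 35, 0.82 ± 0.33 (adjusted p = 0.12). Cdca8 and Birc5, which belong to the chromosomal passenger complex, had 0.68 and 0.57, and the kinesin genes Kif11, Kif20a and Kif23 had 0.61, 0.62 and 0.66. Top2a, the topoisomerase that untangles sister chromatids, had 108.8, 115.1 and 97.9 FPKM in K27M cultures and 117.0, 63.3 and 57.3 FPKM in WT-Tag cultures (0.50 ± 0.23). The spindle assembly genes Tpx2 and Nusap1 had 0.45 and 0.46.

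Mki67, which encodes the proliferation antigen Ki-67, stood at the other end. It had 84.2, 98.1 and 63.5 FPKM in K27M hindbrain cultures, against 99.9, 79.4 and 61.8 FPKM in WT-Tag cultures, a log2 change of 0.03 ± 0.24 with a 95% interval of -0.50 to 0.56. Cenpf and Cenpe, large proteins of the outer kinetochore, had 0.03 ± 0.32 and 0.24 ± 0.27. The WT-Tag library of experiment 1 lay above the whole K27M range for Mki67, as for 8 members in all in the hindbrain. Cdc20, with the largest change, was another of the 8, at 83.4 against at most 83.3 FPKM. In the same cultures Ccnb2 did not overlap.

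**Figure D2:**
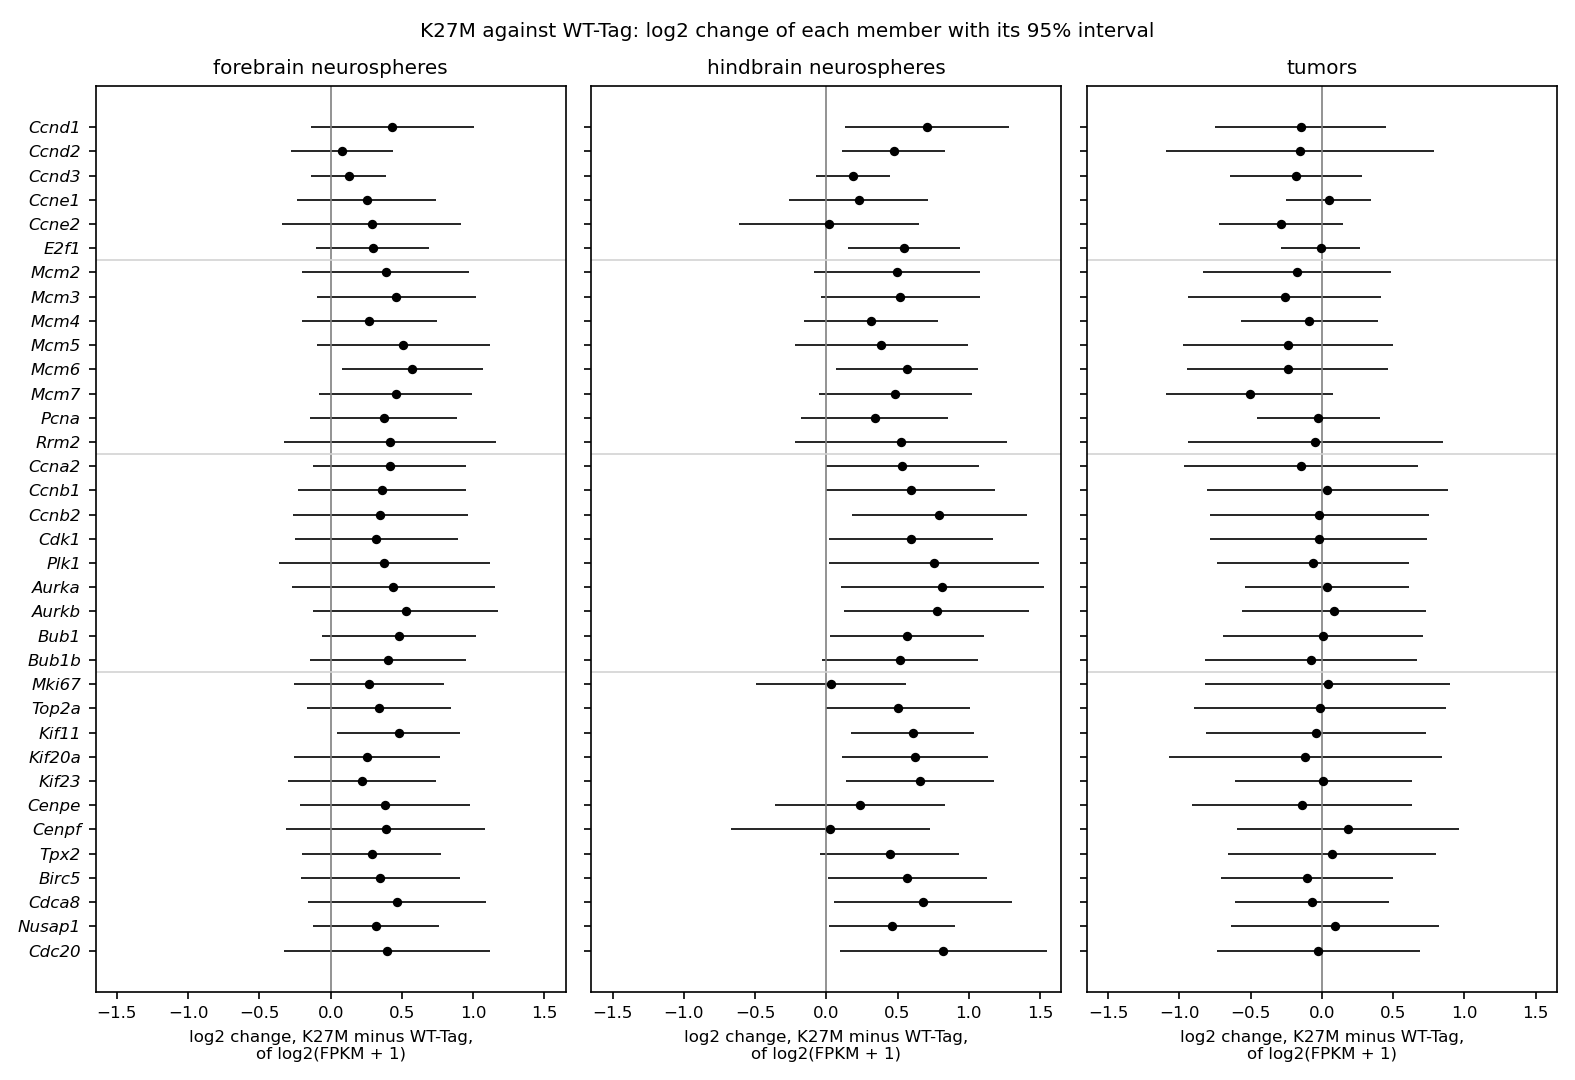
Log2 change of each of the 35 members (rows, by role: G1 cyclins and E2f1, replication, mitotic cyclins and kinases, spindle and chromosome) in K27M minus WT-Tag, with its 95% interval, in forebrain neurospheres, hindbrain neurospheres and tumors (horizontal axes, differences of log2(FPKM + 1)). All points lie above 0 in both neurosphere panels, with medians of 0.38 in forebrain and 0.53 in hindbrain, and around 0 in tumors.

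In forebrain cultures all 35 members also had a positive log2 change in K27M against WT-Tag, with a median of 0.38 and a range of 0.08 to 0.57, and 34 were positive with quantile normalization. These cultures share their experiment ids with the hindbrain cultures, so the regions are not independent repeats of each other. Over all genes tested 59.2% were positive, with a median of 0.04. No member passed the threshold, as against 0.356% of the 13190 genes tested. The smallest adjusted p was 0.313, for the helicase gene Mcm6. An unadjusted p under 0.05 was found for 2 of the 35 members and for 1726 of the 13190 genes tested.

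Mcm2 had 44.9, 48.5 and 56.4 FPKM in K27M forebrain cultures of experiments 1, 2 and 3, against 53.3, 30.6 and 33.2 FPKM in WT-Tag cultures. Mcm5 had 46.4, 44.7 and 48.3 FPKM in K27M cultures and 46.3, 26.9 and 27.1 FPKM in WT-Tag cultures. Rrm2 had 80.6, 86.9 and 96.6 FPKM in K27M cultures and 100.9, 50.6 and 54.9 FPKM in WT-Tag cultures. For these replication genes the WT-Tag library of experiment 1 again lay within or above the K27M range, and the log2 changes were 0.38 ± 0.27 for Mcm2, 0.51 ± 0.28 for Mcm5 and 0.42 ± 0.34 for Rrm2.

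Among the mitotic genes Ccnb1 had 57.2, 53.9 and 58.8 FPKM in K27M forebrain cultures and 59.2, 36.8 and 38.9 FPKM in WT-Tag cultures (log2 change 0.36 ± 0.27). Cdk1 had 47.7, 46.8 and 59.0 FPKM in K27M cultures and 50.6, 34.7 and 38.0 FPKM in WT-Tag cultures (0.32 ± 0.26). Both genes were lower in the WT-Tag libraries of experiments 2 and 3 than in any K27M library. Top2a had 102.3, 103.4 and 120.0 FPKM in K27M cultures and 105.5, 76.0 and 77.3 FPKM in WT-Tag cultures (0.34 ± 0.23). Mki67 had 85.6, 91.6 and 144.2 FPKM in K27M cultures and 104.0, 84.6 and 73.4 FPKM in WT-Tag cultures (0.27 ± 0.24). Its highest value was in the K27M library of experiment 3, and its groups overlapped.

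Of the G1 genes Ccnd1 had 351.2, 350.3 and 413.9 FPKM in K27M forebrain cultures and 341.4, 231.8 and 260.8 FPKM in WT-Tag cultures, so that the groups did not overlap (log2 change 0.43 ± 0.26, adjusted p = 0.519). Ccnd2 had 156.3, 163.0 and 193.9 FPKM in K27M cultures and 157.5, 155.1 and 170.9 FPKM in WT-Tag cultures (0.08 ± 0.16). Ccne1 had 9.76, 10.7 and 12.2 FPKM in K27M cultures and 12.4, 7.27 and 7.91 FPKM in WT-Tag cultures (0.25 ± 0.22). E2f1 had no overlap, with 4.43, 4.37 and 5.39 FPKM in K27M cultures and 4.12, 3.04 and 3.90 FPKM in WT-Tag cultures (0.29 ± 0.18). In all, 6 members did not overlap between the forebrain groups (Ccnd1, E2f1, Mcm3, Mcm6, Bub1 and Kif11), as against 24.9% of all genes tested. Ccnd3 had 14.8, 15.2 and 13.1 FPKM in K27M forebrain cultures and 14.9, 11.9 and 12.4 FPKM in WT-Tag cultures, a log2 change of 0.13 ± 0.12.

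The K27M effect was then compared between the regions in 1 model. No member differed, as against 0.0379% of genes tested. The largest differences of the hindbrain minus the forebrain effect were 0.45 ± 0.39 for Ccnb2 and 0.44 ± 0.33 for Kif23, and the smallest adjusted p was 0.911, for Ccnd2 (0.39 ± 0.23). All 9 mitotic cyclins and kinases had a positive difference, with a median of 0.25, beside 58.8% of all genes tested and a median of 0.04.

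Between hindbrain and forebrain cultures of 1 genotype, Ccnd2 was the only member to pass the threshold. It fell by 1.02 ± 0.16 on the log2 scale in WT-Tag hindbrain against WT-Tag forebrain cultures (adjusted p = 0.00726), where 1.82% of genes passed. The 3 hindbrain libraries, at 78.1, 87.9 and 71.2 FPKM, all lay below the 3 forebrain libraries, at 157.5, 155.1 and 170.9 FPKM. No other member was without overlap between the WT-Tag regions, as against 14.7% of all genes tested. In K27M cultures Ccnd2 fell by 0.63 ± 0.16 (adjusted p = 0.0385), where 7.92% of genes passed, with 124.0, 129.1 and 82.3 FPKM in hindbrain against 156.3, 163.0 and 193.9 FPKM in forebrain libraries. The K27M value was negative in all 20 alternatives but passed in only 6, with adjusted p-values of 0.0254 to 0.239, and missed the threshold with the replicate block (0.0503) and without experiment 3 (0.239) or experiment 1 (0.124). The WT-Tag value passed in 19 of 20 and missed without experiment 1 (adjusted p = 0.102). The median over all 35 members was -0.04 in K27M and -0.19 in WT-Tag cultures. In K27M cultures 7 members did not overlap between regions, as against 31.9% of genes, namely Ccnd2 and Mcm5, both lower in hindbrain, and Aurka, Aurkb, Ccnb2, Kif20a and Cdc20, with log2 differences of 0.23 to 0.38.

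Other genes of the cycle mostly had the sign of the members in the neurospheres. In hindbrain cultures all 51 other mitotic genes had a positive log2 change in K27M against WT-Tag (median 0.49), and 2 rose, Cks2, a small subunit of Cdk complexes (0.95 ± 0.28, adjusted p = 0.0436), and the kinesin gene Kif14 (0.68 ± 0.20, adjusted p = 0.0499). All 30 other replication genes were positive (median 0.36), and none passed; Gmnn, the inhibitor of replication licensing, had the smallest p (adjusted p = 0.115). Of 16 other G1/S regulators 13 were positive and Cdc25a, a phosphatase that activates Cdk2, rose (0.59 ± 0.17, adjusted p = 0.0465). Over all genes tested in this comparison 62.3% were positive and 8.42% were called higher. In forebrain cultures and in tumors no gene of these 3 lists passed.

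Inhibitors of the cyclin-dependent kinases also rose in K27M hindbrain cultures, 3 of 7 tested, with a median log2 change of 0.59, where 8.42% of all genes were called higher. Cdkn1a, which encodes p21, averaged 62.0 ± 8.10 FPKM in K27M and 37.9 ± 5.03 FPKM in WT-Tag hindbrain cultures (SD, n = 3 each), a log2 change of 0.70 ± 0.13 (adjusted p = 0.00737). Cdkn1b, the gene of p27, averaged 37.0 ± 7.92 FPKM in K27M and 21.4 ± 6.15 FPKM in WT-Tag cultures (0.78 ± 0.19, adjusted p = 0.0252), and Cdkn1c, the gene of p57, averaged 34.96 ± 7.02 FPKM in K27M and 14.97 ± 4.55 FPKM in WT-Tag cultures (1.19 ± 0.31, adjusted p = 0.0322). With the replicate block, where 3 of the 35 members were also called, all 3 inhibitors still passed (adjusted p = 0.00626, 0.0263 and 0.0418 for Cdkn1a, Cdkn1b and Cdkn1c). Without the WT-Tag hindbrain library of experiment 1, where 27 members were called, these 3 and Cdkn2d passed. Without all of experiment 1 Cdkn1c did not (adjusted p = 0.119). In that setting Cdkn1a, Cdkn1b, Cdkn2c and Cdkn2d passed (adjusted p = 0.0166, 0.022, 0.0286 and 0.0383). Inhibitors and members were not tested against each other. No inhibitor passed in forebrain cultures or in tumors, and the difference between the regions did not pass for Cdkn1a (0.65 ± 0.18, adjusted p = 0.429).

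Astrocyte and mature oligodendrocyte markers moved in the other direction in these libraries. Of 10 astrocyte markers 8 fell in K27M hindbrain cultures (median log2 change -1.46), where 5.13% of all genes were called lower. The summed level of the 10 was 323.0 to 364.8 FPKM in K27M and 613.5 to 853.1 FPKM in WT-Tag cultures, with none at 0. Of 7 mature oligodendrocyte markers tested 3 fell (median -1.26), with summed levels of all 12 of 22.7 to 33.0 FPKM in K27M and 38.8 to 112.7 FPKM in WT-Tag cultures and 1 of the 12 at 0 in K27M cultures. Oligodendrocyte precursor markers were split: of 8 tested 3 fell and none rose past the threshold (median -0.47), while 3 had a positive log2 change. Summed over the 8, levels were 419.3 to 468.9 FPKM in K27M and 402.2 to 517.7 FPKM in WT-Tag hindbrain cultures. Of 10 neural stem markers 2 rose and 2 fell, and none of 3 neuron markers tested passed. In forebrain cultures 2 of 10 astrocyte markers fell, where 0.174% of all genes were called lower. The part of these cell type markers in the members' values was not tested.

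In tumors the members did not separate the genotypes. None of the 35 passed the threshold, as against 0.0846% of the 15360 genes tested, so few genes of any kind passed. None of the 35 had an unadjusted p under 0.05, as against 1104 of the 15360 genes. The smallest adjusted p was 0.748, for Mcm7, the log2 changes ran from -0.51 to 0.18, and the median was -0.05. That median's sign was not stable: it was 0.22, with 31 members positive, without WT-Tag tumors 8 and 9, 0.18 with neuron markers as a covariate and 0.02 with a pseudocount of 0.1, and it was -0.29 in tumors labelled female.

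Mki67 ranged from 6.07 to 47.9 FPKM in K27M tumors with a median of 16.04, and from 1.18 to 56.2 FPKM in WT-Tag tumors with a median of 17.9, a log2 change of 0.04 with a 95% interval of -0.82 to 0.90. Top2a ranged from 5.93 to 57.8 FPKM across K27M tumors (median 18.9) and 1.90 to 73.6 FPKM across WT-Tag tumors (median 20.4). The K27M range of both genes lay inside the WT-Tag range. Ccnb1 ranged from 2.99 to 22.8 FPKM across K27M tumors (median 7.01) and 0.703 to 43.8 FPKM across WT-Tag tumors (median 7.91). Cdk1 ranged from 3.04 to 18.9 FPKM across K27M tumors (median 7.16) and 0.879 to 32.1 FPKM across WT-Tag tumors (median 6.38). The 95% interval of the log2 change was narrowest for Cdk1 among these 4 genes, at -0.78 to 0.74, so a smaller difference in either direction was not detectable with these tumors.

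Mcm2 ranged from 4.11 to 25.9 FPKM across K27M tumors (median 8.84) and 2.24 to 40.9 FPKM across WT-Tag tumors (median 10.9). Mcm5 ranged from 3.10 to 21.8 FPKM across K27M tumors (median 9.52) and 1.90 to 52.7 FPKM across WT-Tag tumors (median 9.88). Rrm2 ranged from 2.28 to 32.3 FPKM across K27M tumors (median 7.25) and 0.817 to 49.1 FPKM across WT-Tag tumors (median 9.72). All 8 replication members had a negative log2 change with a median of -0.205, and the lowest, Mcm7, had -0.51 with a 95% interval of -1.09 to 0.08. Over all genes tested 46.6% were positive, with a median of -0.01. E2f1 ranged from 0.886 to 2.47 FPKM across K27M tumors (median 1.66) and 0.773 to 4.28 FPKM across WT-Tag tumors (median 1.61), and Ccne1 from 2.67 to 8.42 FPKM across K27M tumors (median 4.26) and 2.40 to 6.79 FPKM across WT-Tag tumors (median 4.60).

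Single WT-Tag tumors set the ends of these ranges. WT-Tag tumor 9 was the highest of all 29 tumors for 29 of the 35 members, and WT-Tag tumor 26 was the lowest for 27. Without WT-Tag tumors 8 and 9 the highest was WT-Tag tumor 28 for 18 members and K27M tumor 3 for 10. The top of the WT-Tag range was then 55.2 FPKM for Mki67, 25.3 FPKM for Ccnb1 and 24.4 FPKM for Mcm2, against 47.9, 22.8 and 25.9 FPKM in K27M tumors. Left out alone, tumor 26 gave a median log2 change of -0.29 with none of the 35 members positive, and tumor 9 gave 0.14 with 31 positive. Without WT-Tag tumor 29 the median was -0.23, and without WT-Tag tumor 28 it was 0.10, while K27M tumor 16 left out gave 0.01. No member was called in any of these.

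**Figure D3:**
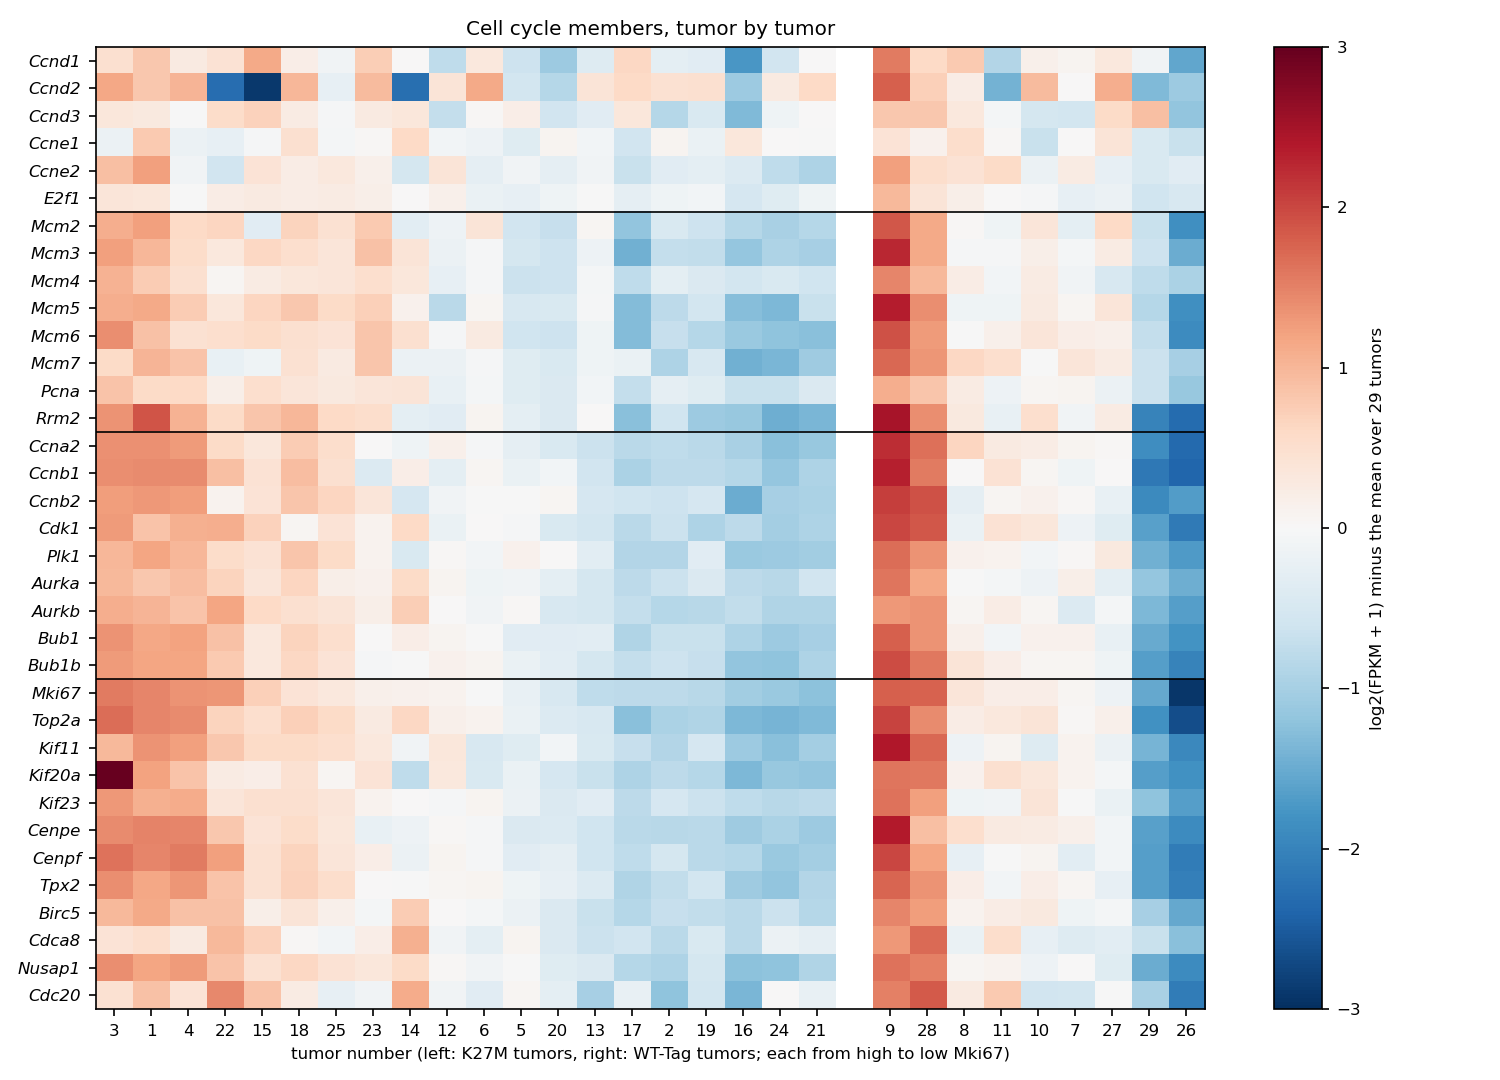
Level of each member (rows) in each tumor (columns, tumor number; K27M tumors left, WT-Tag tumors right, each from high to low Mki67) as log2(FPKM + 1) minus the member's mean over 29 tumors, with the colour scale held at 3 in both directions. Below the G1 cyclins the columns are nearly of 1 colour from top to bottom, with WT-Tag tumors 9 and 28 high and 26 and 29 low; Ccnd2 in K27M tumors 14, 15 and 22 and Kif20a in K27M tumor 3 stand out.

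The members spread widely over the tumors. The highest of the 29 tumors held between 3.502 and 244 times the FPKM of the lowest, with a median of 27.8 over the members, and for 29 members the ratio was above 10. The same ratio was not computed over all genes, and some lowest values were under 1 FPKM, such as 0.148 FPKM for Cdca8. By role the median ratio was 6.89 for the G1 cyclins and E2f1, 18.0 for replication, 36.5 for mitotic cyclins and kinases and 40.7 for spindle and chromosome genes. Single WT-Tag tumors moved these ratios. Without WT-Tag tumor 26 the medians by role, in the same order, were 6.89, 11.8, 23.7 and 15.6. Without WT-Tag tumors 8 and 9 they were 6.31, 10, 30.3 and 28.1. Within the 20 K27M tumors they were 5.97, 6.81, 7.64 and 8.62, with a median of 7.88 over all members and 4 members above 10, whereas within the 9 WT-Tag tumors they were 5.10, 18.0, 36.5 and 38.5.

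Members varied together from tumor to tumor. Over the 29 tumors Pearson's r with Mki67 on the log2(FPKM + 1) scale had a median of 0.930 over the other 34 members, beside 0.08 over all genes tested. After adjustment over 15359 genes 32 of the 34 passed the threshold with r above 0, as did 23.3% of all genes, and 73 genes, 17 of them members, lay above the members' median. By Spearman's rho 32 passed as well, and without WT-Tag tumors 8 and 9 the median r was 0.924 and 32 passed. For the 9 mitotic cyclins and kinases r ran from 0.913 to 0.977, and for the 11 other spindle and chromosome genes from 0.830 to 0.977, with Cdca8, Kif20a and Cdc20 lowest at 0.830, 0.842 and 0.844. The checkpoint kinase gene Bub1b had r = 0.977 and rho = 0.981, Ccna2 had r = 0.972 and rho = 0.983, and Cdk1 had r = 0.965 and rho = 0.951, each with a permutation p of 1e-05, the smallest that 100000 permutations can give. Leaving out the 2 tumors farthest from the Mki67 median, WT-Tag tumors 26 and 9, left r for the 9 cyclins and kinases between 0.907 and 0.980. Points shared their libraries and thus the depth and the mix of cells.

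Replication genes followed Mki67 less closely, with r from 0.815 for Mcm7 to 0.934 for Rrm2, and r for Mcm2 and Mcm5 was 0.880 and 0.887. E2f1 had r = 0.825, and Ccne2 had 0.684. The D-type cyclin genes Ccnd1 and Ccnd3 had 0.686 and 0.558, Ccne1 had 0.401 and Ccnd2 had 0.224, where the permutation p adjusted over all genes was 0.352 for Ccnd2 and 0.0681 for Ccne1, the 2 members that did not pass. By rank, Ccnd2 had rho = 0.311 and Ccne1 had 0.313. Without the 2 farthest tumors Ccne1 had r = 0.218 and Ccnd2 had 0.06, and without WT-Tag tumors 8 and 9 they had 0.353 and 0.142.

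Relations were also computed within each genotype. In the 20 K27M tumors r was 0.888 to 0.976 for the mitotic cyclins and kinases, 0.796 to 0.917 for replication, 0.740 to 0.984 for spindle and chromosome genes, with Cdc20, Cdca8 and Kif20a at 0.740, 0.759 and 0.805, 0.595 for Ccnd1, 0.577 for Ccnd3, 0.150 for Ccne1 and -0.07 for Ccnd2. After adjustment over all genes 32 of 34 passed in K27M tumors, where 19.6% of all genes did with r above 0. In the 9 WT-Tag tumors r was 0.935 to 0.982 for the mitotic group, 0.916 to 0.973 for replication and 0.895 to 0.987 for spindle and chromosome genes. Exact permutation tests over all pairings, adjusted over all genes, were passed by 24 of 34 members (5 by rho), against 1.94% of all genes. No G1 gene was among the 24: Ccnd1 had 0.807, Ccnd2 0.695, Ccne1 0.660 and Ccnd3, the lowest, 0.559, with adjusted p-values of 0.112 to 0.313. The difference in Ccnd2 between the genotypes was not tested. Relative depth had r = 0.156 with Mki67 (rho 0.147, permutation p = 0.419 and 0.445, r without the 2 farthest tumors 0.05).

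**Figure D4:**
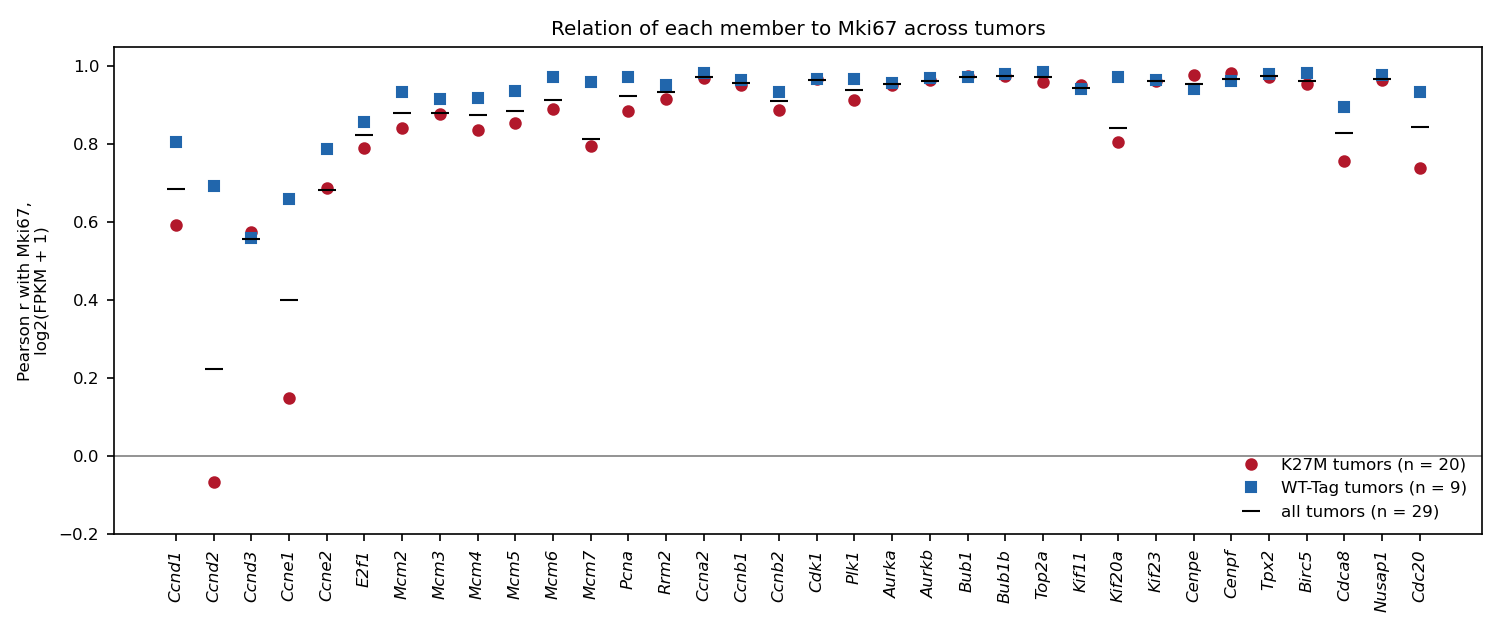
Pearson's r of each member with Mki67 across tumors, on log2(FPKM + 1) values (vertical axis), for the 20 K27M tumors (red circles), the 9 WT-Tag tumors (blue squares) and all 29 tumors (black dashes). The mitotic cyclins and kinases lie between 0.888 and 0.982 in both genotypes, with Cdc20, Cdca8 and Kif20a lower in K27M tumors (0.740 to 0.805). Ccnd2 is lowest in K27M tumors, at -0.07, and Ccnd3 in WT-Tag tumors, at 0.559.

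Markers of other cell types moved with this axis. The mean level of 14 neuron markers had r = -0.703 with Mki67 over the 29 tumors (rho -0.696), that of 10 astrocyte markers -0.745 (rho -0.725) and that of 12 mature oligodendrocyte markers -0.482 (rho -0.522), with permutation p adjusted over 9 lists of 0.000225, 0.00018 and 0.0127. Neural stem markers had 0.571 (rho 0.664, adjusted p = 0.00372) and oligodendrocyte precursor markers 0.422 (rho 0.541, adjusted p = 0.0291), while microglia and endothelial markers had 0.203 and 0.158 and did not pass. Without the 2 farthest tumors r was -0.711 for neurons, -0.745 for astrocytes, -0.476 for mature oligodendrocytes, 0.606 for neural stem markers and 0.569 for precursors. Within K27M tumors r was -0.773 for neurons and -0.811 for astrocytes, and within WT-Tag tumors it was -0.705 and -0.715, where the exact permutation p-values of 0.0320 and 0.0305 became 0.0959 for both after adjustment. There neural stem and precursor markers had 0.399 and 0.175 and did not pass, and lymphocyte markers were the 1 list of 9 that did (r = 0.918, rho = 0.817, exact permutation p adjusted over 9 lists = 0.00563, and 0.0969 by rho). The summed neuron markers were 90.01 to 1144 FPKM across K27M tumors and 76.9 to 669.9 FPKM across WT-Tag tumors, with no marker at 0. Red blood cell markers had r = 0.482 (rho 0.502, adjusted p = 0.0127), and lymphocyte markers, whose 8 genes all lay under 1 FPKM, had 0.500 (rho 0.411, adjusted p = 0.0127). Their part in the members' spread was not tested.

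Because mitotic and replication members varied together, the promoters of these genes were searched for the sequence elements known to bind cell cycle regulators. Promoters (RefSeq, GRCm38.p6; 250 bases before to 50 after the start) were on hand for 27 of the 35 members, with 29 promoters in all. The search, on both strands, was for the CHR element bound by the DREAM and MuvB complexes (TTTGAA or TTTAAA), for the CCAAT box bound by NF-Y (CCAAT) and for 4 forms of the E2F site (TTTGGCGC, TTTCCCGC, TTTCGCGC or TTTGCCGC), and matches may overlap. Bases in capitals mark the matches in the 150 bases before the start, read 5′ to 3′ along the gene's strand, for 3 mitotic genes, Mki67 and 2 helicase genes.
Mki67 (chr7:135716380-135716529, minus strand): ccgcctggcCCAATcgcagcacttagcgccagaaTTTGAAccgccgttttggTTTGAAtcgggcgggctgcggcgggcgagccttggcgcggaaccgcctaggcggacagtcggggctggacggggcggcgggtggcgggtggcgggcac
Cdk1 (chr10:69352913-69353062, minus strand): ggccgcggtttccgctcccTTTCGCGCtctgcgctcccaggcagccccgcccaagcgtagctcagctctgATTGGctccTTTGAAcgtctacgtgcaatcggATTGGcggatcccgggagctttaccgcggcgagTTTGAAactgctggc
Plk1 (chr7:122159285-122159434, plus strand): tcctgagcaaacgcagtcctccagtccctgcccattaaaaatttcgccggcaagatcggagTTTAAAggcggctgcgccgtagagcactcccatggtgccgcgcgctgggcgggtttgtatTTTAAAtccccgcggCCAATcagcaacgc
Ccnb1 (chr13:100786487-100786636, minus strand): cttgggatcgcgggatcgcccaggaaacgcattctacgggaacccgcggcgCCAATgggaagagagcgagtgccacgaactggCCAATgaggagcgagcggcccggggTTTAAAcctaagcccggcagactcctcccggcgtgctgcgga
Mcm6 (chr1:128359706-128359855, minus strand): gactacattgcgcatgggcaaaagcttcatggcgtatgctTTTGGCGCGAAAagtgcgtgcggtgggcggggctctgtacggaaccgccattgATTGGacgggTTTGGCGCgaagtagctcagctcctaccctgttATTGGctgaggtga
Mcm5 (chr8:75109359-75109508, plus strand): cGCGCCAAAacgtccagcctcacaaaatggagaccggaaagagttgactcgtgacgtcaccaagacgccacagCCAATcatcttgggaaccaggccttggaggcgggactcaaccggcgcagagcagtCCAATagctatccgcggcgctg

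The CHR letters were in 6 of 7 promoters of mitotic cyclins and kinases and in 9 of 10 of spindle and chromosome genes, against 3 of 8 of replication genes and 27.6% of all 32851 promoters of the same length. CCAAT was in all 7 and in 8 of 10 mitotic promoters and in all 8 replication promoters, against 37.4% of all promoters. E2F letters were in 4 of 8 replication promoters, in 1 of 7 of mitotic cyclins and kinases, that of Cdk1, and in none of 10 of spindle and chromosome genes, against 2.3% of all promoters. Of the 4 promoters of Ccnd3, Ccne1 and E2f1, 1 held a CHR match and 1 a CCAAT match. A match says only that these letters are in the window. Mcm4, Aurkb, Tpx2, Ccne2, Ccnd1, Ccna2, Kif20a and Ccnd2 had no entry and were not searched.

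Over all tumors and over K27M tumors, Ccnd2 had the lowest r with Mki67. In K27M tumors it ranged from 2.53 to 57.6 FPKM with a median of 34.4, and in WT-Tag tumors from 8.80 to 90.9 FPKM with a median of 29.9. K27M tumors 15, 22 and 14 had 2.53, 4.45 and 4.47 FPKM, all below 5 FPKM, and no WT-Tag tumor was below 5 FPKM. These 3 tumors were not low in the other D-type cyclins: tumor 15 had the highest Ccnd1 of the K27M tumors, 295.4 FPKM, and the highest Ccnd3, 43.1 FPKM, and tumor 22 had 180.6 FPKM of Ccnd1. Their Mki67 was 26.3, 40.5 and 17.04 FPKM, above the K27M median. Ccnd1 ranged from 38.9 to 295.4 FPKM across K27M tumors (median 134.6) and 44.6 to 393.7 FPKM across WT-Tag tumors (median 148.1), and Ccnd3 from 9.92 to 43.1 FPKM across K27M tumors (median 26.6) and 11.1 to 49.8 FPKM across WT-Tag tumors (median 33.0). Log2 changes of the 3 cyclins were -0.15, -0.15 and -0.18 for Ccnd1, Ccnd2 and Ccnd3, with 95% intervals of -0.75 to 0.45, -1.09 to 0.78 and -0.64 to 0.28.

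Kif20a, a kinesin of the final stage of division, had 1 tumor far from all others. K27M tumor 3 had 97.8 FPKM, whereas the highest of the other 28 tumors had 14.1 FPKM, and its value was 37.2 times the median of the other K27M tumors, where that ratio for Ccnb1 was 3.36. The genes on either side were looked at after this value was seen, 8 to each side in the order of GRCm38.p6, with 16 genes of the stretch found in the table. Brd8, which overlaps Kif20a in that annotation, had 84.0 FPKM in tumor 3, against 5.96 to 8.91 FPKM in the other 19 K27M tumors. Cdc23, which also overlaps it and encodes a subunit of the anaphase-promoting complex, had 60.9 FPKM in tumor 3 and 2.32 to 6.48 FPKM in the others. Farther out Fam13b had 102.3 FPKM in tumor 3 and 8.36 to 23.9 FPKM in the others, and Srp19 had 60.1 FPKM and 4.65 to 7.77 FPKM.

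High values were thus not limited to the kinesin gene. Kif20a not counted, 11 neighbours had a median of at least 1 FPKM in the other K27M tumors, and 6 of the 11 were higher in tumor 3 than in any of these, 4 of them at more than 5 times the median. Reep5, which lies between Srp19 and Fam13b, had 31.6 FPKM in tumor 3, inside the 17.8 to 72.1 FPKM of the others. Without tumor 3 Kif20a had r = 0.932 with Mki67 over 28 tumors, against 0.842 with it.

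**Figure D5:**
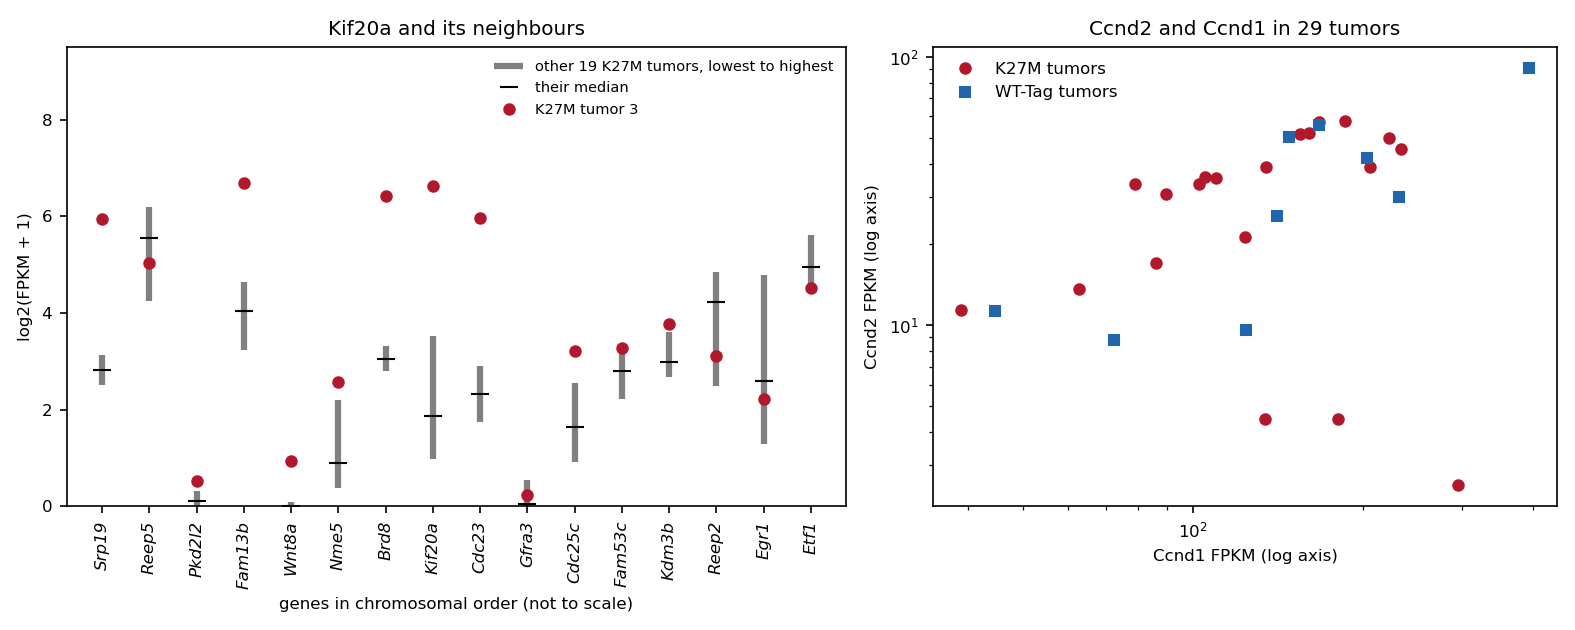
Left, log2(FPKM + 1) of Kif20a and its neighbours in chromosomal order (horizontal axis, not to scale) in K27M tumor 3 (red points) and in the other 19 K27M tumors (grey bars, lowest to highest, with a dash at the median). Right, Ccnd2 against Ccnd1 FPKM on log axes in K27M (circles) and WT-Tag (squares) tumors, with 3 K27M tumors below 5 FPKM of Ccnd2 apart from the rest.

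Against hindbrain neurospheres, nearly all members fell in tumors of both genotypes. In K27M tumors 34 of 35 fell against K27M hindbrain cultures and Ccnd3 rose, with a median log2 change of -2.51, where 59.6% of genes passed and the median over all genes was 0.10. In WT-Tag tumors 31 fell and Ccnd3 rose against WT-Tag hindbrain cultures, with a median of -1.95, where 46.3% of genes passed and the median over all genes was 0.16. Tumors and cultures also differ in the receptor and Trp53 alleles and in their mix of cells, which cannot be told apart from growth as a tumor.

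The mitotic cyclins and kinases fell by a median of 2.72 across K27M tumors and of 2.04 for WT-Tag tumors on the log2 scale. Ccnb2 fell by 3.10 ± 0.53 in K27M tumors (adjusted p = 5.79e-06) and by 2.29 ± 0.57 in WT-Tag tumors (adjusted p = 0.00131). Replication members fell by a median of 1.95 in K27M tumors. Of these 8 genes, 7 fell in WT-Tag tumors, where Mcm7 had -0.79 ± 0.43 (adjusted p = 0.134). Ccnd1 fell by 1.44 ± 0.42 in K27M tumors (adjusted p = 0.00340) and had -0.58 ± 0.45 in WT-Tag tumors (adjusted p = 0.288).

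Ccnd3 was the exception in both. It averaged 26.8 ± 8.66 FPKM in K27M tumors and 14.4 ± 1.41 FPKM in K27M hindbrain cultures (SD, n = 20 and 3), a log2 change of 0.77 ± 0.31 (adjusted p = 0.0318), and in WT-Tag tumors the change was 1.14 ± 0.34 (adjusted p = 0.00583). The K27M call was lost when any 1 of the 3 K27M hindbrain libraries was left out (adjusted p up to 0.109) and with no filter (0.0562). In WT-Tag tumors the count of members called was 20 without the WT-Tag hindbrain library of experiment 1.

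Other genes of the cycle fell too, 51 of 51 other mitotic and 30 of 30 other replication genes in K27M tumors, and 46 and 21 of them in WT-Tag tumors. The largest falls in K27M tumors were those of Ckap2, a spindle protein (3.38), and Uhrf1, which copies DNA methylation at replication (2.84). Cdkn2a, which encodes p16 and p19ARF, rose against cultures, by 2.63 ± 0.54 in K27M tumors and by 3.63 ± 0.58 for the WT-Tag tumors (adjusted p = 8.62e-05 and 4.27e-06), whereas Cdkn2c fell, by 2.32 and 2.47. Markers of other cells moved beside these falls. Neural stem markers fell, 8 of 10 in both genotypes. Of 10 astrocyte markers 6 rose and 2 fell in K27M tumors, and 3 rose and 4 fell in WT-Tag tumors. Neuron markers rose, 14 of 14 in K27M and 12 of 14 in WT-Tag tumors, as did 13 of 13 microglia markers in both genotypes, the microglia markers summing to 280.3 to 1030 FPKM in K27M and 334.6 to 1126 FPKM in WT-Tag tumors, against 1.58 to 2.58 FPKM in K27M and 1.79 to 2.47 FPKM in WT-Tag hindbrain cultures. Their part in the falls was not tested.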

How the data were processed

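RNA was measured by stranded total RNA sequencing in 41 mouse libraries, with samples grouped by the genotype, tissue and region in their labels. The authors deposited 1 table of FPKM values per gene, and the submitters' processing notes name CASAVA, TopHat2, STAR and mm9 with no versions or roles; use of strand in counting was not given there, and 10 members overlap another protein-coding gene in GRCm38.p6. Read counts and depth are unknown, and relative depth came from the steps between low values. Of 34591 entries 974 were at 0 in every library.

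Genes with at least 1 FPKM in at least 9 tumors, 3 neurospheres or 3 of all libraries were tested on log2(FPKM + 1) with limma 3.58.1 in R 4.3.3 (trend, two-sided), with Benjamini-Hochberg adjustment over all genes tested and a threshold of 0.05. All 12 neurospheres shared 1 fit, as did all 29 tumors and, for tumors against neurospheres, all 41 libraries. A fold change on this scale understates that of low genes. Relations to Mki67 used 100000 two-sided permutations (exact over pairings for 9 tumors), adjusted over all genes for members and over 9 lists for markers, in Python 3.11.15 with scipy 1.17.1. The fits were tested on simulated data.

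The labels give neurospheres of 1 number a shared experiment, which pairs them. The main fits held no term for it. Correlations of same-numbered deviations between K27M and WT-Tag were 0.443, -0.234 and 0.352 in forebrain and 0.412, 0.152 and 0.438 in hindbrain. Between forebrain and hindbrain they were 0.668, 0.712 and 0.165 in WT-Tag and 0.216, -0.0471 and -0.0405 in K27M cultures.

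Members, gene lists and tests were chosen with earlier results of these data known. All members are named, with values of every library (tumors: lowest, median, highest) for 12 of them. Of the other cell cycle lists, counts and up to 3 largest changes per direction are named, or the gene with the smallest p, and of cell type markers only counts and sums. Alternatives without experiment 1, without WT-Tag tumors 8 and 9 against neurospheres and without tumors in the spread, and the adjustment of relations over all genes, were chosen after seeing the data, as were the neighbours of Kif20a. Promoters are from RefSeq (GRCm38.p6), and matching used gene symbols.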

Additional observations from a re-analysis of the deposited data

How the results depend on the processing

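In tumors (38 alternatives), in forebrain cultures (20) and for the regional difference in the K27M effect (19) no member was called under any alternative run. In hindbrain cultures the count of members called, 0, became 1 with quantile normalization, 3 with the replicate block and 26 without experiment 1. It ran from 0 to 27 with single libraries left out. Over all genes 7.23%, 11.2% and 14.5% were called higher with quantile normalization, the replicate block and without experiment 1. Where 27 members were called, 23.4% of all genes were called higher. The cause of these shifts was not tested. Between regions in K27M cultures the count of 1 became 0 with no filter, median-ratio scaling, the replicate block, without experiment 3, without experiment 1 and with only the 2 groups, and ran from 0 to 1 with single libraries left out. In WT-Tag cultures it ran from 1 to 3 with single libraries left out and was 0 without experiment 1. For K27M tumors against hindbrain cultures 34 or 35 members were called throughout, and for WT-Tag tumors 20 to 30 with single cultures left out, against 32. The replicate block changed no other call. Quantile normalization moved the median of all genes from 0.10 to -0.10 in K27M tumors against cultures and from 0.16 to -0.09 in WT-Tag tumors against cultures. Of the 34 relations to Mki67 over all tumors, 33 passed with the planned adjustment over these 34 and 32 with that over all genes, Ccne1 being the difference. With 3 cultures a group and no read counts, differences smaller than the intervals given were not detectable.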

Other observations

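The ratio of Ccnb2 to Mki67 within a library, looked at after the values were seen, was 0.668, 0.586 and 0.867 in K27M hindbrain cultures of experiments 1, 2 and 3, against 0.540, 0.327 and 0.377 in WT-Tag hindbrain cultures. In forebrain cultures it was 0.524, 0.507 and 0.360 in K27M cultures and 0.513, 0.358 and 0.434 in WT-Tag cultures. The hindbrain groups did not overlap, and the forebrain groups did, but both genes were picked from these same values. Ccnb2 was the only member without overlap in hindbrain cultures, and Mki67 had a change near 0 there. A gap in their ratio thus adds no separate evidence, and the share of gene pairs with such a gap was not computed. For Top2a the ratio was 1.29, 1.17 and 1.54 in K27M hindbrain cultures and 1.17, 0.797 and 0.927 in WT-Tag hindbrain cultures. These ratios were not tested.

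Cdkn1c, the gene of p57, was higher in hindbrain than in forebrain among K27M cultures (log2 difference 1.16 ± 0.31, adjusted p = 0.0460), and Cdkn1a fell by 0.75 ± 0.13 in WT-Tag hindbrain against WT-Tag forebrain cultures (adjusted p = 0.0102). In K27M against WT-Tag tumors Cdkn1c had a log2 change of 1.01 ± 0.35 that did not pass (adjusted p = 0.49).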
